A study of Homo sapiens with 12 samples.

Results

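TEAD1, TEAD2, TEAD3 and TEAD4 form the human TEAD family of transcription factors, and their transcripts were followed here across HGC-27 cells with and without the peptide GLUP. The members were the rows whose Ensembl identifiers map to these 4 symbols, 4 of the 20345 rows in the table. HGC-27, a line grown from a human gastric cancer, gave RNA for 12 libraries, 3 in each of 4 groups. The groups were WT untreated (replicates 1, 2 and 3), WT with GLUP (replicates 14, 15 and 16), TEAD4KO untreated (replicates 1, 2 and 3) and TEAD4KO with GLUP (replicates 14, 15 and 16). GLUP is a cyclic peptide based on the part of VGLL4 that binds TEAD4, and it was made to bring TEAD4 molecules together. The libraries called WT carry no genotype tag of their own, and the way TEAD4 was edited, and whether the TEAD4KO cells were 1 clone, is not described in the sources used here. The labels do not say whether replicates were separate cultures, so p-values measure only the spread between these libraries. Levels are in FPKM (fragments per kilobase of transcript, scaled by the mapped fragments of the library), which allows levels of different genes to be compared per length. The sequencing depth behind them is unknown. On the first principal component (39.7% of the variance) TEAD4KO untreated replicate 1 (-0.96) and TEAD4KO GLUP replicate 16 (-5.26) lay apart from the other libraries of the label, which were at 9.91 or higher. The WT libraries ran from -16.2 to -3.71 there, so TEAD4KO GLUP replicate 16 lay within their range and TEAD4KO untreated replicate 1 near it. Results of the label comparison are also given without these 2 libraries. Leaving out the TEAD4KO-labelled libraries nearest to WT favours a larger label difference, so those results are no separate support for it.

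TEAD proteins bind DNA through the TEA domain and have little activity on their own. They need co-activators, mainly YAP (gene YAP1) and TAZ (gene WWTR1), which the kinases of the Hippo pathway keep out of the nucleus. VGLL4 competes with YAP and TAZ for the TEAD surface. The members are encoded on different chromosomes and recognise much the same DNA element.

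On the GRCh37 build and the GENCODE 44 annotation, TEAD1 (ENSG00000187079) lies at chr11:12695968-12966284 on the plus strand and TEAD2 (ENSG00000074219) at chr19:49843852-49865714 on the minus strand. TEAD3 (ENSG00000007866) lies at chr6:35441374-35464856 on the minus strand and TEAD4 (ENSG00000197905) at chr12:3068496-3149842 on the plus strand. Each canonical transcript has 13 exons. The coding sequences are 1278, 1353, 1305 and 1302 bases long for TEAD1 to TEAD4, and pairs of them share from 70.4% (TEAD1 and TEAD2) to 74.8% (TEAD3 and TEAD4) of their aligned bases. A short read from a stretch that paralogs share exactly cannot be assigned to 1 of them, so the exact stretches of the 3 pairs that share the most bases in a row are shown, from the GRCh37 reference genome, 5′ to 3′ in coding direction.
TEAD3 and TEAD4: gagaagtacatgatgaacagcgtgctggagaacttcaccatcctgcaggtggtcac
TEAD2 and TEAD3: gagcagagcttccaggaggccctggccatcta
TEAD1 and TEAD4: atgatcaacttcatccacaagctcaa
The first is 56 bases long and lies across the junction of exons 12 and 13 in both genes, at chr6:35442927-35443160 in TEAD3 and chr12:3149378-3149538 in TEAD4, intron included. The second is 32 bases long and lies in exon 2 of both genes, at chr19:49863154-49863185 in TEAD2 and chr6:35454291-35454322 in TEAD3. The third is 26 bases long and lies in exon 12 of both genes, at chr11:12951790-12951815 in TEAD1 and chr12:3149342-3149367 in TEAD4. The remaining 3 pairs share at most 14, 20 and 23 bases in a row, so most of each coding sequence differs between the paralogs within such a length.

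The TEAD4 transcript, the target named in the knockout label, was not lower in the libraries labelled TEAD4KO. Without GLUP, TEAD4 stood at 25.8, 24.4 and 25.0 FPKM in WT replicates 1 to 3, and under GLUP WT replicates 14 to 16 held 23.7, 22.9 and 23.8 FPKM. The TEAD4KO-labelled libraries without GLUP gave 30.1, 27.7 and 27.2 FPKM, and those given the peptide 27.8, 29.4 and 26.0 FPKM. All 6 values under the label were above all 6 WT values, although the closest, 26.0 and 25.8 FPKM, nearly met. How many of all genes separate by label in this way was not counted. Such a separation, here and for the members below, is therefore not shown to be particular to the family. A gene-level value does not show which exons were read. Every direction below between the labels rests on the label alone.

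TEAD1 was the most abundant member in WT cells. Its level was 32.6, 29.9 and 32.8 FPKM without GLUP, while WT libraries under GLUP gave 30.0, 29.9 and 31.8 FPKM. For TEAD4KO-labelled libraries the values were 28.0, 21.6 and 25.8 FPKM without GLUP, then 25.7, 25.0 and 29.6 FPKM under it. Each of these 6 lay below all 6 WT values, and untreated replicate 2 was the lowest. TEAD2, a member known for its expression in early embryos, had 13.1, 12.8 and 14.1 FPKM in WT without GLUP, and 14.2, 13.9 and 14.5 FPKM in WT under GLUP. Under the label it had 10.1, 7.76 and 9.61 FPKM without the peptide and 10.8, 9.23 and 10.5 FPKM when it was given, so the labels did not overlap here either. TEAD3, known for its expression in placenta, was the lowest member in WT. Untreated WT libraries held 7.91, 8.92 and 7.83 FPKM of it, and WT libraries given GLUP 7.43, 7.97 and 8.59 FPKM. The label gave 8.96, 9.15 and 7.97 FPKM when untreated, and 7.99, 7.75 and 8.58 FPKM when treated. All 4 groups overlapped for TEAD3, and over all 12 libraries it had the lowest coefficient of variation of the 4 (6.77%), although within each WT group its own was the highest (7.39% and 7.25%).

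**Figure D1:**
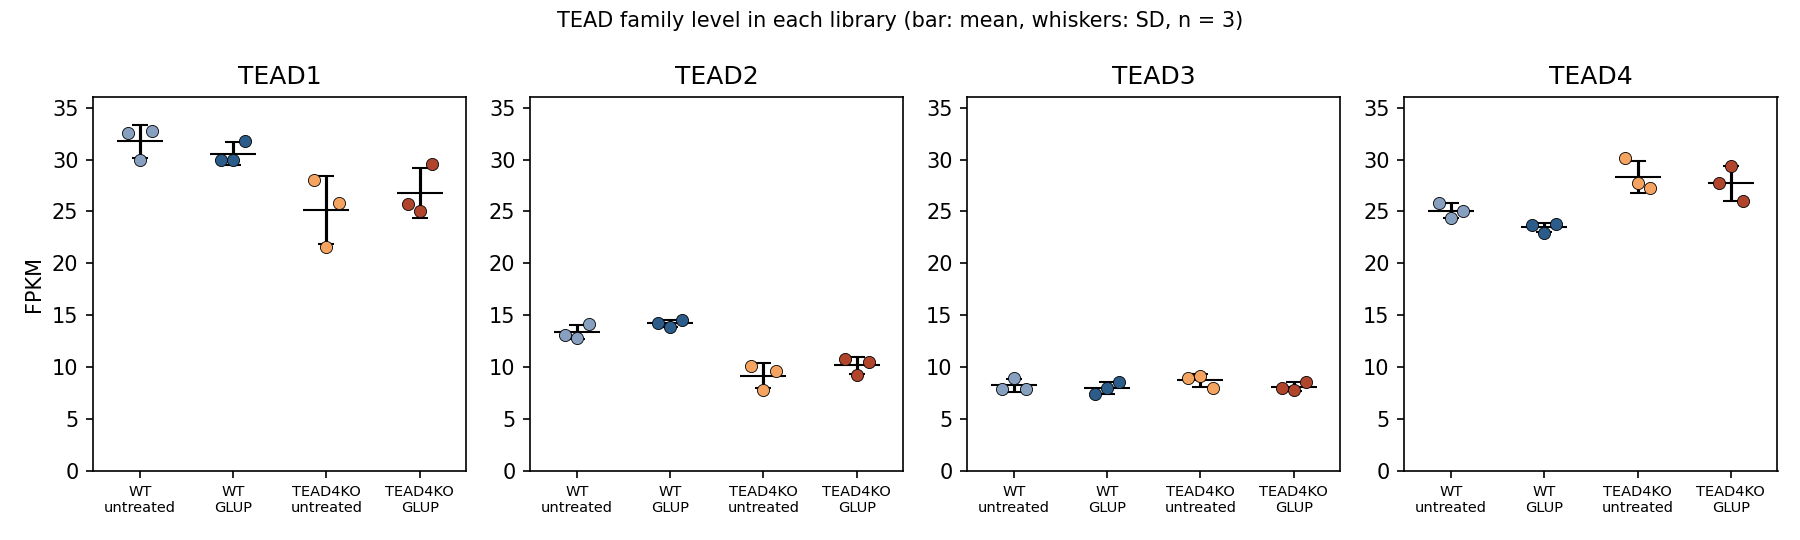
Level of each TEAD gene in FPKM (vertical axis) in the 12 libraries, 1 panel per gene; points are libraries in order of replicate number, the bar is the group mean and the whiskers the SD (n = 3). In the deposited FPKM, TEAD1 and TEAD2 are lower and TEAD4 higher in the TEAD4KO-labelled groups, while TEAD3 stays between 7.43 and 9.15 FPKM in every library.

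Rows whose 12 libraries averaged 1 FPKM or more were tested, 11225 in all. Among them TEAD1 was at the 79.0th percentile of mean level, TEAD4 at the 77.0th, TEAD2 at the 53.7th and TEAD3 at the 41.5th. All 6 WT libraries had the order TEAD1, TEAD4, TEAD2, TEAD3, and no 2 neighbours in that order overlapped between libraries of WT. In libraries labelled TEAD4KO, TEAD4 was above TEAD1 in 5 of 6, the exception being GLUP replicate 16 (29.6 FPKM for TEAD1 and 26.0 FPKM for TEAD4). The ranges of TEAD4 (26.0 to 30.1 FPKM) and TEAD1 (21.6 to 29.6 FPKM) overlapped there, so the order of these neighbours was not separated from the spread. The ranges of TEAD2 (7.76 to 10.8 FPKM) and TEAD3 (7.75 to 9.15 FPKM) also overlapped under the label, and TEAD3 was above TEAD2 in 1 of 6 libraries.

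The first comparison asked whether the TEAD4KO label went with a change in the family. Differences were taken as log2(FPKM + 1), a scale that shrinks the fold of weakly expressed genes, with limma fitted to all tested rows and a gene called at a Benjamini-Hochberg adjusted p under 0.05. Averaged over both treatments, TEAD2 fell by 0.48 ± 0.065 (SE, limma adjusted p = 0.000357) and TEAD1 fell by 0.26 ± 0.064 (limma adjusted p = 0.0126). TEAD4 was higher by 0.20 ± 0.044 (limma adjusted p = 0.00752), and TEAD3 differed by 0.046 ± 0.059 (limma adjusted p = 0.612), with a 95% interval from -0.081 to 0.17. Thus 3 of 4 members were called, where 20.02% of all tested rows were called in the same comparison (1611 higher and 636 lower). Without the 2 libraries that lay apart, TEAD2 differed by -0.52 (limma adjusted p = 0.000125), TEAD1 by -0.33 (limma adjusted p = 0.000549) and TEAD4 by 0.20 (limma adjusted p = 0.00184), and all 3 remained called. More rows were called in that fit as well, 4644 of the 11225 tested. None of the 4 differed by 2-fold, and on this scale the largest difference, that of TEAD2, was 1.39-fold. In bulk RNA, fewer cells that express a gene and less of its RNA per cell cannot be told apart.

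In untreated cells alone TEAD2 fell by 0.50 ± 0.091 (SE, limma adjusted p = 0.00830) and TEAD1 fell by 0.33 ± 0.090 (limma adjusted p = 0.0482). TEAD4 differed by 0.17 ± 0.063 (limma adjusted p = 0.135) and TEAD3 by 0.073 ± 0.083 (limma adjusted p = 0.653). The 2 called members compare with a background of 5.42% of tested rows. The call of TEAD1 held in 2 of 12 fits that each left out 1 library (those without TEAD4KO untreated replicate 1 or TEAD4KO GLUP replicate 16), and its adjusted p reached 0.191 without WT untreated replicate 3 (limma). The call of TEAD2 was lost in 1 of 12, also without WT untreated replicate 3 (limma adjusted p = 0.0573). In GLUP-treated cells TEAD2 fell by 0.45 ± 0.091 (limma adjusted p = 0.0125), TEAD4 was higher by 0.23 ± 0.063 (limma adjusted p = 0.0479) and TEAD1 differed by -0.19 ± 0.090 (limma adjusted p = 0.222), where 5.84% of tested rows were called. The TEAD4 call there was lost when the replicate number was a block (limma adjusted p = 0.0516), and in 8 of 12 fits that left out 1 library, all 6 WT libraries and TEAD4KO GLUP replicates 14 and 15 among them (limma adjusted p up to 0.177). The call of TEAD2 was lost without WT GLUP replicate 14 or 16 or TEAD4KO GLUP replicate 15 (limma adjusted p = 0.0509, 0.0659 and 0.0619). Without the 2 libraries that lay apart, TEAD1 and TEAD2 were called in untreated cells (-0.41 and -0.57), and TEAD1, TEAD2 and TEAD4 in GLUP-treated cells (-0.26, -0.47 and 0.27). That fit called 2231 of the 11225 tested rows in untreated cells and 3121 in GLUP-treated cells. With all 12 libraries, TEAD2 was the member called in both treatments.

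The label differences of all genes followed transcript length, and this bears on the members because they differ in length. Over the 11077 tested genes with a reference length, the label difference averaged over both treatments had a Spearman's rho of -0.53 with transcript length and 0.26 with GC content, a description across genes, which are not independent replicates. TEAD4, with 1710 bases, is in bin 2 of the 10 equal bins of transcript length, counted from the shortest, and the median difference of that bin was 0.12. TEAD1, with 9417 bases, is in bin 10, whose median was -0.12. TEAD2, with 2440 bases, is in bin 3, whose median was 0.078, so its lower value went against genes of like length. TEAD3, with 2986 bases, is in bin 5, with a median of 0.018. Once the trend of every library with GC content and length had been taken out, TEAD2 differed by -0.54 ± 0.055 (SE, limma adjusted p = 0.000284) and TEAD1 by -0.14 ± 0.034 (limma adjusted p = 0.0211), both still called. The same corrected comparison called 1561 of the 11225 tested rows. TEAD4 then differed by 0.042 ± 0.040 (limma adjusted p = 0.498) and was no longer called, and in untreated cells alone its difference turned to -0.0071. TEAD3 then differed by -0.0024 ± 0.051 (limma adjusted p = 0.979). By treatment, the corrected TEAD1 difference was called in untreated cells (-0.22, limma adjusted p = 0.0417) but not with GLUP (-0.052, limma adjusted p = 0.554). Of the 11225 tested rows, 201 and 432 were called in these corrected comparisons. The difference between these TEAD1 values was itself not called (0.17, limma adjusted p = 0.998).

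**Figure D2:**
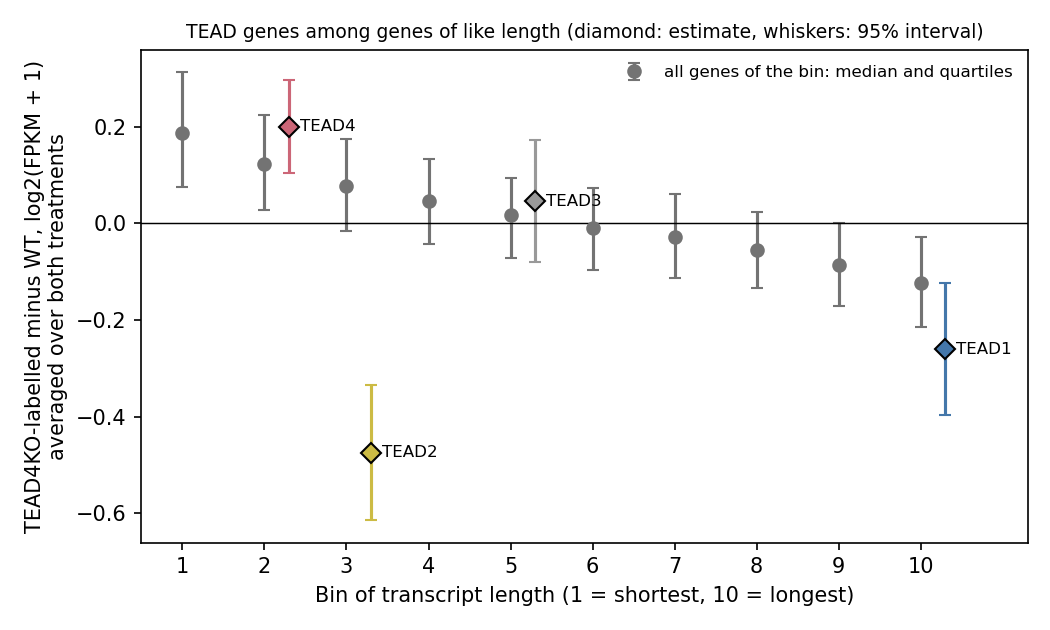
Difference between TEAD4KO-labelled and WT libraries in log2(FPKM + 1), averaged over both treatments (vertical axis), against the bin of transcript length (horizontal axis, 1 shortest, 10 longest); grey points are the median and quartiles of all tested genes of a bin, diamonds the TEAD genes with their 95% interval. TEAD4 and TEAD1 lie on the side of 0 where genes of their length lie, and TEAD2, at -0.48, lies below its bin, whose median is 0.078.

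The composition of the family was then compared, since shares and ratios within a library do not depend on library scaling. The summed level of the 4 genes was 77.3 ± 2.22 FPKM (SD, n = 6) in WT and 72.1 ± 3.73 FPKM (SD, n = 6) in TEAD4KO-labelled libraries, a difference of -5.24 FPKM (two-sided exact permutation test with the label exchanged within treatment, p = 0.02). Without WT untreated replicate 1 or 3 it no longer passed (exact permutation p = 0.065 and 0.07). The TEAD4 share was 32.5%, 32.1% and 31.4% in untreated WT and 31.5%, 30.7% and 30.2% in WT with GLUP. Under the label it was 39.0%, 41.8% and 38.5% untreated and 38.4%, 41.2% and 34.9% with GLUP. No TEAD4KO-labelled library overlapped WT, and the difference was 7.59 percentage points (exact permutation, adjusted p = 0.00667). The raw p of 0.005 behind it is the smallest that the 400 arrangements of the labels can give.

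The TEAD2 share was 17.8% ± 0.983 (SD, n = 6) in WT and 13.4% ± 1.09 (SD, n = 6) under the label, again with no overlap (exact permutation, adjusted p = 0.00667). The TEAD1 share was 40.3% ± 0.702 in WT and 36.0% ± 2.28 under the label (exact permutation, adjusted p = 0.00667), and GLUP replicate 16 at 39.6% reached into the WT range. The TEAD3 share was 10.5% ± 0.755 and 11.7% ± 1.08 (exact permutation, adjusted p = 0.05), which did not fall under the threshold. With the label exchanged within same-numbered pairs only, it reached the smallest p that the 64 arrangements allow (exact permutation, adjusted p = 0.0313), but not with this restriction in the GLUP libraries alone (exact permutation, adjusted p = 0.05). It passed without TEAD4KO GLUP replicate 15, WT GLUP replicate 16 or WT untreated replicate 2 (exact permutation, adjusted p = 0.045, 0.035 and 0.02). After the correction for length and GC content, the TEAD1 share differed by -0.31 percentage points (exact permutation, adjusted p = 0.64), so its difference was no longer found. The TEAD2 share still differed by -4.93 points and the TEAD4 share by 4.24 points (exact permutation, adjusted p = 0.01 for both). Because shares are parts of 1 total, a lower TEAD2 level alone raises the TEAD4 share, so these are not 2 separate changes. The corrected TEAD4 level itself, averaged over both treatments, was not called (0.042, limma adjusted p = 0.498). Without the 2 libraries that lay apart, the shares of TEAD1, TEAD2 and TEAD4 differed by -5.35, -4.52 and 8.61 points in the deposited FPKM (exact permutation, adjusted p = 0.0133 for each). In the corrected values TEAD4 was above TEAD1 in 3 of 6 libraries under the label rather than 5 of 6.

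**Figure D3:**
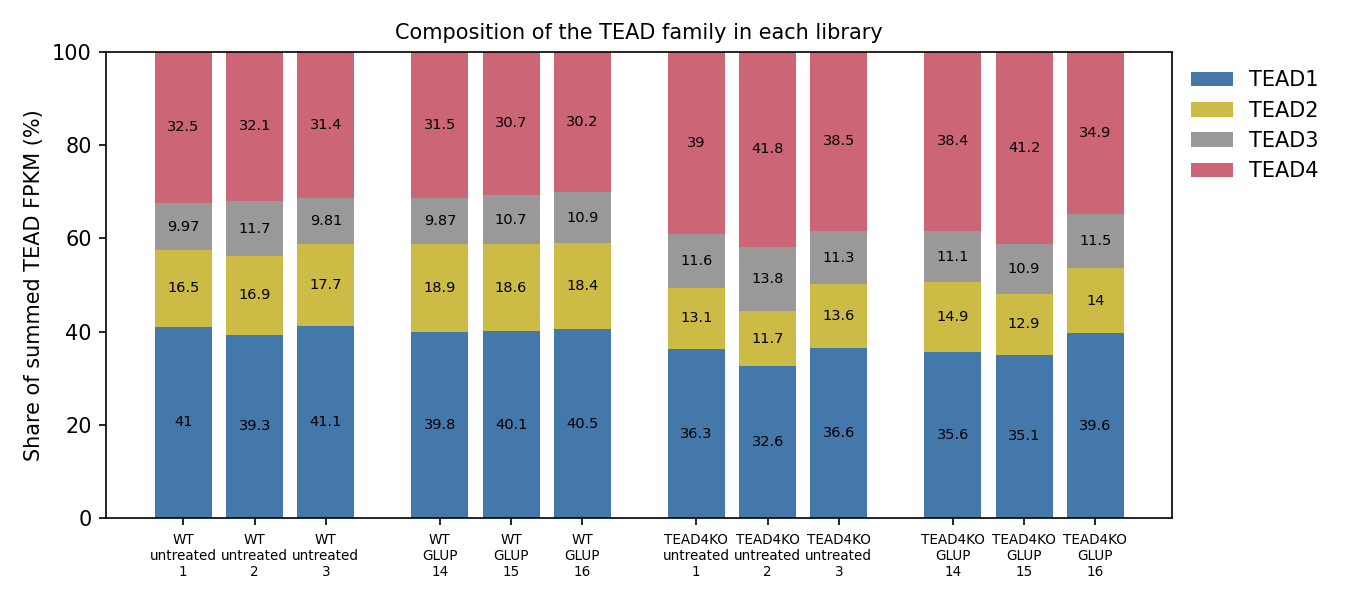
Share of each TEAD gene in the summed TEAD FPKM of a library, in percent (vertical axis), for the 12 libraries in 4 groups with the replicate number under each bar. The TEAD4 segment is 30.2% to 32.5% in WT and 34.9% to 41.8% in TEAD4KO-labelled libraries, and the TEAD2 segment is 16.5% to 18.9% and 11.7% to 14.9%.

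Ratios of TEAD4 to its paralogs were higher under the label for TEAD1 and TEAD2 and not separated for TEAD3. The log2 ratio of TEAD4 to TEAD2 was 0.82 ± 0.11 (SD, n = 6) in WT and 1.54 ± 0.19 under the label (exact permutation, adjusted p = 0.0075). The log2 ratio of TEAD4 to TEAD1 was -0.36 ± 0.046 in WT and 0.12 ± 0.18 under the label (exact permutation, adjusted p = 0.0075), and that to TEAD3 was 1.58 ± 0.11 and 1.74 ± 0.12 (exact permutation, adjusted p = 0.07). The last also had an adjusted p of 0.0313 with the exchange within all numbered pairs and 0.0625 with pairs in the GLUP libraries alone (exact permutation). It passed without TEAD4KO GLUP replicate 16, TEAD4KO untreated replicate 2 or WT untreated replicate 1 (exact permutation, adjusted p = 0.045, 0.04 and 0.045). With the correction these differences were 0.63 for TEAD2 and 0.19 for TEAD1 (exact permutation, adjusted p = 0.015 for both), and 0.046 for TEAD3 (adjusted p = 0.495 in the same exact permutation test).

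The second comparison asked whether GLUP went with a change in the family, and no member was called. In WT the log2 differences were -0.053 for TEAD1, 0.084 for TEAD2, -0.035 for TEAD3 and -0.093 for TEAD4 (limma adjusted p = 0.999 for each). The 95% intervals reached from -0.25 for TEAD1 to 0.28 for TEAD2. In TEAD4KO-labelled libraries the differences were 0.092, 0.14, -0.090 and -0.031 in the same order (limma adjusted p from 0.899 to 0.973), with intervals from -0.27 for TEAD3 to 0.34 for TEAD2. With the length and GC correction TEAD2 differed there by 0.18, with an interval from 0.017 to 0.35. Averaged over both labels its corrected difference was 0.13, with an interval from 0.016 to 0.25. Neither was called (limma adjusted p = 0.516 and 0.458). Of all tested rows, 0.00891% were called with GLUP in WT (385 at an unadjusted p under 0.05) and 0.0445% in TEAD4KO-labelled libraries (716 unadjusted). Averaged over both labels, TEAD2 differed by 0.11 ± 0.065 (SE, limma adjusted p = 0.775), TEAD4 by -0.062 ± 0.044 (limma adjusted p = 0.841), TEAD3 by -0.063 ± 0.059 (limma adjusted p = 0.901) and TEAD1 by 0.019 ± 0.064 (limma adjusted p = 0.982), where 0.258% of rows were called. The difference between the GLUP effects in the 2 labels was at most 0.15 in size (TEAD1, limma adjusted p = 1.00), where 0.00891% of rows were called.

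No share or ratio passed the threshold with GLUP. The TEAD2 share differed by 1.39 percentage points (exact permutation with treatment exchanged within label, raw p = 0.015, adjusted p = 0.06), from 17.0% ± 0.638 to 18.6% ± 0.234 in WT (SD, n = 3). Under the label it ran from 11.7% to 13.6% untreated and from 12.9% to 14.9% with GLUP. The 3 WT libraries with GLUP, at 18.4% or higher, were above the 3 untreated WT libraries, which reached 17.7%. The TEAD4 share differed by -1.43 points (exact permutation, adjusted p = 0.42), and the summed level by -0.38 FPKM (exact permutation, p = 0.845). Without TEAD4KO GLUP replicate 15 the TEAD2 and TEAD4 shares differed by 1.65 and -2.18 points, and both passed (exact permutation, adjusted p = 0.03). The log2 ratio of TEAD4 to TEAD2 differed by -0.19 with GLUP (exact permutation, adjusted p = 0.105), and by -0.24 without the same library, where it passed (exact permutation, adjusted p = 0.03).

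**Figure D4:**
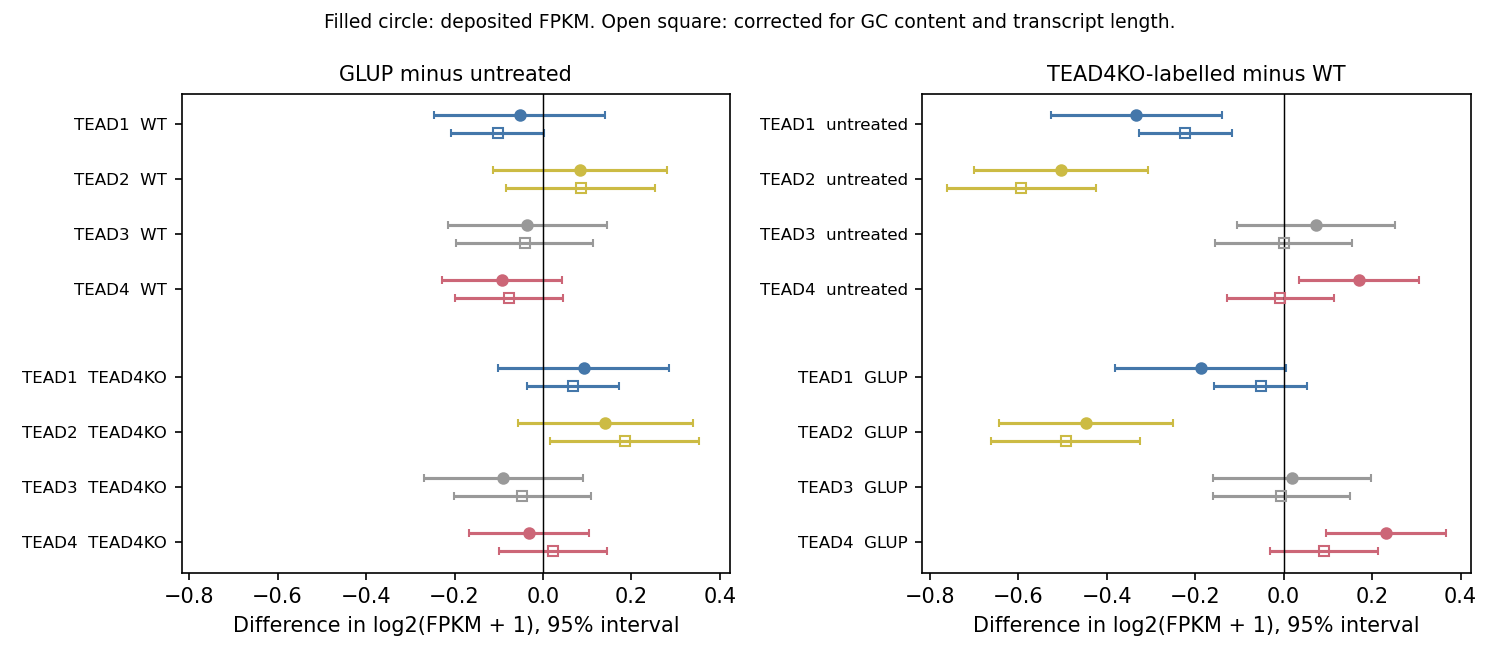
Differences in log2(FPKM + 1) with 95% intervals (horizontal axis) for GLUP minus untreated (left) and TEAD4KO-labelled minus WT (right) in each subgroup; filled circles use the deposited FPKM and open squares the values corrected for GC content and transcript length. TEAD2 lies left of 0 in both label comparisons on either scale, and TEAD4 moves from 0.17 and 0.23 to -0.0071 and 0.091 with the correction, where both intervals include 0. With the deposited FPKM every GLUP interval includes 0. With the correction that of TEAD2 in TEAD4KO-labelled libraries does not (0.017 to 0.35).

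Within the labels, TEAD1 and TEAD2 had a Pearson's r of 0.12 over the 6 WT libraries and 0.85 over the 6 TEAD4KO-labelled libraries, a description with no test. TEAD4KO untreated replicate 2 was the lowest library for both genes (21.6 and 7.76 FPKM). The pair of TEAD1 and TEAD4 went the other way, with 0.73 in WT and -0.13 under the label. Over the 12 libraries, which fall into the 2 labels, the genes most like TEAD2 were SMC1A (r = 0.976), FMR1 (0.975) and PRPF8 (0.973), and among those most like TEAD1 were RBM26 (0.975) and AGO1 (0.973). Those most like TEAD4 were COMTD1 (0.962), RBBP6 (0.942) and JOSD2 (0.933). TEAD3 was most like WTIP (0.832), LUC7L (0.831) and ARHGAP27 (0.819). All of these correlations share the libraries, and the part of the length trend in them was not tested.

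Genes that overlap or neighbour the members were listed beside them. CD37, which overlaps TEAD2 on the opposite strand, ranged from 1.51 to 5.33 FPKM and differed by -0.44 ± 0.22 (SE, limma adjusted p = 0.180) under the label averaged over both treatments. The counting is not stated to use strand, so reads of this overlap cannot be told apart. DKKL1, which also overlaps TEAD2, was at most 0.441 FPKM. PARVA and BMAL1 beside TEAD1, SLC6A16 beside TEAD2, and TULP3 and TSPAN9 beside TEAD4 were not called under the label. KASH5 and TULP1 were below the limit for testing. RPL10A, 2812 bases from TEAD3, was called in that comparison (0.29 ± 0.066, limma adjusted p = 0.00817), while TEAD3 was not.

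Of 9 TEAD cofactors, 4 were high enough to test. YAP1, which had group means from 32.3 to 37.8 FPKM, and WWTR1, at 18.9 to 23.2 FPKM, were not called in any comparison. VGLL4, whose TEAD-binding part gave GLUP, stood at 10.2 ± 0.733 FPKM (SD, n = 3) in untreated WT and 12.8 ± 1.29 FPKM with GLUP, and at 11.0 ± 0.262 and 14.2 ± 0.865 FPKM under the label. It was called with GLUP averaged over both labels (0.32 ± 0.058 SE, limma adjusted p = 0.0399, and 0.0116 after the length and GC correction) but in neither label alone (limma adjusted p = 0.610 and 0.260). VGLL4 was the only tested cofactor called in that averaged comparison, beside 0.258% of all tested rows. RFXANK, also on the list and a subunit of the RFX complex that drives MHC class II genes, was higher under the label (0.33 ± 0.045 SE, limma adjusted p = 0.000358), with 60.9 ± 1.33 FPKM in untreated WT and 80.0 ± 3.04 FPKM in the matching TEAD4KO-labelled libraries. RFXANK was the only tested cofactor called under the label averaged over both treatments, beside 20.02% of all tested rows. After the correction its difference was 0.14 (limma adjusted p = 0.0367) averaged over both treatments, and it was no longer called in untreated (0.18, limma adjusted p = 0.110) or GLUP-treated cells (0.090, limma adjusted p = 0.355). VGLL1, VGLL2 and FAM181A were listed at 0 in every library, and VGLL3 and FAM181B did not exceed 0.036 FPKM.

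Of 16 Hippo kinases and regulators, all tested, 1 was higher and 3 were lower under the label averaged over both treatments, and 12 were not called. These 4 of 16 stand beside 20.02% of all tested rows. AMOTL2, an angiomotin family adaptor, was higher by 0.21 ± 0.043 (SE, limma adjusted p = 0.00491). LATS1, the kinase that phosphorylates YAP, fell by 0.31 ± 0.079 (limma adjusted p = 0.0161), PTPN14 fell by 0.28 ± 0.086 (limma adjusted p = 0.0341) and AMOT fell by 0.24 ± 0.060 (limma adjusted p = 0.0136). After the length and GC correction LATS1 and AMOTL2 were still called, whereas PTPN14 and AMOT were not. These calls stand beside 1561 of the 11225 tested rows called with the correction. The median of the list was -0.095 in the deposited FPKM, against 0.0080 over all tested rows. After the correction the middle values of the list were those of STK4 (-0.0079) and TAOK1 (-0.0075). The corrected median over all tested rows was 0.0011. None of the 16 was called with GLUP, where 0.00891% of all tested rows were called in WT, 0.0445% in TEAD4KO-labelled libraries and 0.258% averaged over both.

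Of 24 TEAD target genes, 21 were tested, and under the label averaged over both treatments 8 were higher and 2 lower, beside 20.02% of all tested rows called. FJX1 (0.43 ± 0.072 SE, limma adjusted p = 0.00128), ANKRD1 (0.42 ± 0.093, limma adjusted p = 0.00708) and IGFBP3 (0.42 ± 0.074, limma adjusted p = 0.00203) had the largest differences, followed by FOXF2, CCN2, GADD45A, AMOTL2 and CCN1. ASAP1 fell by 0.33 ± 0.080 (limma adjusted p = 0.0118), and PTPN14 was the other lower gene. With the correction 7 were higher and 2 lower, beside 1561 of the 11225 tested rows called. Of the 10 genes, 6 kept their call. FOXF2, GADD45A, CCN1 and PTPN14 lost it, and CCDC80, TGFB2 (both higher) and ARHGEF17 (lower) gained one. The list median was 0.064 with the deposited values, against 0.0080 over all tested rows. In untreated cells alone IGFBP3 and FJX1 were called, both higher, and in GLUP-treated cells AMOTL2, ANKRD1, IGFBP3, FJX1 and FOXF2, also higher, where 5.42% and 5.84% of tested rows were called. With the correction these counts were 0 and 2, beside 201 and 432 of the 11225 tested rows called. With GLUP averaged over both labels TGFB2 alone was called (0.41 ± 0.055 SE, limma adjusted p = 0.00521), beside 0.258% of all tested rows. It stood at 11.6 ± 0.610 FPKM in untreated WT and 15.7 ± 0.699 FPKM with GLUP (SD, n = 3), and at 12.3 ± 0.977 and 16.8 ± 1.25 FPKM under the label. TGFB2 was called in neither label alone (limma adjusted p = 0.238 in WT and 0.118 under the label). After the correction these were 0.0750 and 0.0227 (limma adjusted p), so it was then called under the label.

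Some facts of the series touch these results. FPKM totals ran from 375361 to 384477 in the WT libraries and from 397321 to 423757 in the TEAD4KO-labelled ones, and the share of rows at 0 from 21.1% to 22.3% and from 23.7% to 25.5%, so neither overlapped between the labels. Their part in the label differences was not tested. Of the epithelial markers, EPCAM, KRT18 and KRT19 were each at 0.290 FPKM or lower, while CDH1 reached 3.68 FPKM and KRT8 ran from 3.78 to 9.13 FPKM. Summed over these 5, the level ran from 8.49 to 9.56 FPKM in untreated WT, 6.48 to 7.49 FPKM in WT with GLUP, 9.62 to 12.4 FPKM in untreated TEAD4KO-labelled and 7.20 to 9.24 FPKM in TEAD4KO-labelled libraries with GLUP. VIM ranged from 1238 to 1704 FPKM, and the fibroblast genes DCN, LUM and COL1A1 were each above 48 FPKM in every library. The sum of these 3 ran from 355 to 373 FPKM in untreated WT, 365 to 402 FPKM in WT with GLUP, 324 to 414 FPKM in untreated TEAD4KO-labelled and 286 to 367 FPKM in TEAD4KO-labelled libraries with GLUP. The leukocyte gene CD3E and the endothelial gene CDH5 were listed at 0 in all 12. Of the other leukocyte genes, PTPRC ran from 0.110 to 0.276 FPKM, and LYZ was at 0 in 6 libraries and reached 0.0941 FPKM. Summed over the 3 mesenchymal markers, nearly all of it VIM, the level ran from 1304 to 1375 FPKM in untreated WT, 1247 to 1308 FPKM in WT with GLUP, 1414 to 1615 FPKM in untreated TEAD4KO-labelled and 1355 to 1709 FPKM in TEAD4KO-labelled libraries with GLUP. FN1 of the same list had means of 6.90 and 7.88 FPKM in WT and 5.39 and 5.35 FPKM under the label, untreated and treated. CDH2, also on that list, ran from 0.0331 to 0.149 FPKM. The part of these markers in the TEAD differences was not tested.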

How the data were processed

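RNA-seq of 12 HGC-27 libraries, 4 groups of 3, was deposited by the authors as FPKM per Ensembl gene, 1 column per library and no pooling. The submitters' processing notes name HISAT2, Cufflinks, RSEM and hg19 without roles or versions, and the sequencing was analysed on the provider's online platform. The annotation is not given in the sources used here. Low values gave no steps of whole reads, so depth is unknown.

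The 11225 rows that averaged 1 FPKM or more were tested as log2(FPKM + 1). One 4-group model was fitted to all libraries with limma 3.58.1 in R 4.3.3 (eBayes with trend, two-sided, Benjamini-Hochberg within a comparison over all tested rows, called at adjusted p under 0.05). Shares, sums and ratios were tested in Python 3.11.15 by exact permutation over libraries (400 arrangements), adjusted over values of the same kind. The GC and length correction used splines with 5 degrees of freedom and GENCODE 44 lengths on GRCh37. The fit and the permutation test were tested on simulated data. Alternatives were a pseudocount of 0.1, no filter, median-ratio and quantile scaling, the correction, a fit of only the groups compared, a replicate block with and without the correction, and leaving out each library. Leaving out 2 libraries together was chosen after seeing the data.

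Groups came from the sample titles and tags. Replicate numbers in the titles were checked for pairing by correlating each library's departure from its group mean. Numbers 14, 15 and 16 gave 0.106, 0.152 and 0.336 between the labels and were judged paired, although libraries 14 and 15 also correlated across numbers (0.116 and 0.134). Numbers 1, 2 and 3 gave -0.0569, 0.203 and -0.0149 and were judged not paired. The planned block nevertheless used all 6 numbers, so a permutation with pairs in the GLUP libraries alone was added after seeing the data. The main limma fit and the main permutation test used no pairing, and no limma fit paired the GLUP libraries alone.

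The members and lists were chosen with earlier results of these data known. The text names the 4 members, for each the 3 tested genes most like it (1 of these genes is not reported here), list genes that were called (at most 12 in a comparison), overlapping and nearest genes, and markers. Gene names matched 96.5% of rows.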

Additional observations from a re-analysis of the deposited data

How the results depend on the processing

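Under the label averaged over both treatments, the calls of TEAD1 and TEAD2 held in all 20 alternatives and that of TEAD4 in 18, lost with the GC and length correction and with the replicate block plus the correction (0.042 in both), while TEAD3 turned to -0.0024 in both. No GLUP call of a member appeared in any alternative run. Unless a sentence says otherwise, the cause of a change was not tested.

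For the label in untreated cells, 608 genes were called, against 394 with no filter, 201 with the correction, 382 with only the groups compared, 135 with the replicate block and the correction, and 2231 without the 2 libraries that stood apart. Leaving out 1 library gave 119 (without WT untreated replicate 3) to 1186 (without TEAD4KO untreated replicate 1). TEAD1 lost its call with no filter and with only the groups compared (-0.33 in both, adjusted p = 0.0989 and 0.0887, limma), and with the block and the correction (-0.22). Its leave-one-out range was -0.41 to -0.23 and that of TEAD2 -0.57 to -0.40. TEAD4 turned to -0.0071 with the correction, with and without the block.

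For the label with GLUP, 656 genes were called, against 432 with the correction, 1064 with the replicate block and 3121 without the 2 libraries, and 196 (without WT GLUP replicate 16) to 1952 (without TEAD4KO GLUP replicate 16) leaving out 1. TEAD4 lost its call with median-ratio scaling (0.23), quantile scaling (0.18), only the groups compared (0.23), the replicate block (0.23), the correction (0.091) and both (0.091), and ranged from 0.19 to 0.27 leaving out 1. TEAD2 ranged from -0.49 to -0.38. TEAD3 turned to -0.0049 with the correction, with and without the block, and to -0.018 without the 2 libraries, and ranged from -0.027 to 0.066. TEAD1 was called without the 2 libraries (-0.26). Over both treatments 2247 genes became 4644 without the 2 libraries, and 1388 (without WT untreated replicate 3) to 3320 (without TEAD4KO GLUP replicate 16) leaving out 1.

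With GLUP in WT, 1 gene became 2 with quantile scaling, the correction and without the 2 libraries, and 0 to 1 leaving out 1; TEAD3 ranged from -0.082 to 0.018. Under the label, 5 genes became 1 with only the groups compared and without the 2 libraries, and 1 to 6 leaving out 1. TEAD4 turned to 0.022 with the correction and 0.055 without the 2 libraries, and ranged from -0.072 to 0.012, and TEAD1 from -0.0094 to 0.17. Averaged over labels, 29 genes became 13 with no filter, 57 with the correction and 11 to 38 leaving out 1, and TEAD1 turned to -0.018 with the correction and ranged from -0.031 to 0.059. The TEAD2 interaction ranged from -0.046 to 0.13.

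The label difference in the TEAD1 share lost its call with the correction (-0.31 points). That in the TEAD3 share passed with quantile scaling (1.57) and the replicate block (1.20), as did the log2 ratio of TEAD4 to TEAD3 with the block (0.16); their leave-one-out ranges were 0.799 to 1.50 points and 0.12 to 0.20. The block, which used all 6 numbers, changed no other permutation call, and with pairs in the GLUP libraries alone (added after seeing the data) no permutation call changed. The summed level ranged from -6.70 to -3.96 FPKM, and was -7.17 FPKM without the 2 libraries. With GLUP, the summed level turned to 0.149 FPKM with quantile scaling and 0.612 FPKM without the 2 libraries (range -1.66 to 1.08), and the TEAD1 share to -0.472 points with the correction (range -0.109 to 1.03). Leaving out 1 library, the TEAD2 share ranged from 1.11 to 1.65 points, the TEAD4 share from -2.18 to -0.609 points, and the log2 ratios of TEAD4 from -0.24 to -0.14 to TEAD2 and from -0.034 to 0.049 to TEAD3, the last at 0.060 without the 2 libraries.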
